A study of Rattus norvegicus with 16 samples.

Results

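The miR-191 and miR-425 cluster comprises a pair of microRNA (miRNA) hairpins in the rat gene Dalrd3, and 4 mature miRNAs on the array carry their names: rno-miR-191, rno-miR-191*, rno-miR-425 and rno-miR-425*. They were chosen by name, as 4 of the 677 rat miRNAs measured, and not by a rule on measured values, though earlier results of these data were known. The arrays came from hearts of rats on day 2 after birth. Of each strain, HHR and NHR, 4 females and 4 males were used, with a one-colour Agilent array for every animal and no pooling. HHR is the Hypertrophic Heart Rat, an inbred model of heart enlargement with a polygenic origin, and NHR is the Normal Heart Rat used as its control; the labels name no transgene and no agent in either strain. The descriptions disagree on the tissue, which is the whole heart in some and the ventricles without the atria in others.

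A miRNA hairpin is cut into a short duplex, and either of its strands can be loaded into an Argonaute protein, where the seed near the 5′ end pairs with target mRNAs. In the older nomenclature of this array an asterisk marks the strand that was thought to be the minor one. The miR-191 and miR-425 hairpins lie close together in mammalian genomes and are found in most tissues, and miR-191 is a frequent choice as a reference when miRNA levels are normalised. In human cells miR-425 represses the mRNA of NPPA, the precursor of atrial natriuretic peptide, and in mouse miR-191 acts in red cell precursors, where it restrains enucleation.

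The 4 mature sequences are shown because the results differed between the arms of the same hairpin. They are RefSeq entries on the GRCr8 build, written 5′ to 3′ with the seed (bases 2 to 8) in capitals. All 4 names matched an entry through the hairpin symbol and the arm, taking the name without an asterisk as the 5′ arm and the name with one as the 3′ arm; the sequences of the array's own probes were not used here.
rno-miR-191: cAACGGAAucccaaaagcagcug
rno-miR-191*: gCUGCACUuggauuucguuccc
rno-miR-425: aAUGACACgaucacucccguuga
rno-miR-425*: aUCGGGAAuaucguguccgcc
The 4 seeds differed from one another. The seeds of miR-191, miR-425 and miR-425* were shared with 0 other entries among the 724 mature rat entries of the table, and that of miR-191* was shared with 1, rno-miR-17-2-3p, which was detected on 0 of the 16 arrays. The mature forms were 23, 22, 23 and 21 bases long in the order given, with 52.17%, 54.55%, 47.83% and 57.14% G or C.

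The hairpins are shown with the arm that was detected on all 16 arrays in capitals, which lies on the 3′ side in Mir191 and on the 5′ side in Mir425.
Mir191: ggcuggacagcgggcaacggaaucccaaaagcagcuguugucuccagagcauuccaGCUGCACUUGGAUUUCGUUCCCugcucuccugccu
Mir425: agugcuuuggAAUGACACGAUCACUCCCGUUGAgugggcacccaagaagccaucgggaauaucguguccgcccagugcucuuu
Mir191 occupies chr8:118142627-118142717 (91 bases) and Mir425 chr8:118143084-118143166 (83 bases) of GRCr8, both on the plus strand, with 366 bases between them. Both lie within the span of Dalrd3 and on its strand; its exon boundaries were not used here. A further annotated miRNA of this locus, rno-miR-3555 (gene symbol Mir3555, miR-191b), lies on the opposite strand, and 20 of its 21 bases form an unbroken antisense match to the 3′ arm of Mir191. It was detected on 0 of the 16 arrays, and it was looked up after the values of the cluster had been seen.

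Between 200 and 239 miRNAs were detected per array, and 186 were detected on all 16. Of the 7 names in a cardiac and skeletal muscle list, 6 were detected on every array, miR-1, miR-133a and miR-499 among them, and the seventh, miR-208, was detected on 0 arrays while miR-208* was detected on all. Markers of liver (miR-122), neural tissue (miR-124 and miR-9) and epithelium (miR-200a, miR-200b, miR-200c and miR-141) were detected on 0 arrays. Levels below are background-subtracted signals after each array was scaled to a common 75th percentile over its bright probes. The arrays differed in brightness by strain: their 75th percentile before scaling was 469.6 ± 37.3 signal units for HHR and 378.4 ± 87.3 for NHR (SD, 8 arrays per strain; p = 0.0191, exact permutation, two-sided). Identical values were found in 0 pairs of arrays. Precision is limited by how many arrays there were.

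The arms of each hairpin differed in how often they were detected, and the arm without the asterisk was not the one found in the Mir191 hairpin. miR-191* and miR-425 were detected on 8 of 8 HHR arrays and 8 of 8 NHR arrays. miR-191 was detected on 0 HHR arrays and 1 NHR array (male 2). miR-425* was detected on 1 HHR array (male 3) and on 3 NHR arrays (females 2 and 4, male 2). By name miR-191 was therefore not broadly detected on these arrays, although its use as a reference presumes that. The other arm of its hairpin was detected throughout. The arms were read by different probes, so the more abundant arm cannot be told from these calls. How well the miR-191 probes bind their target was not tested.

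Counted by strain, the spot flags were likewise frequent for miR-425 and miR-191* and rare for miR-425* and miR-191. They did not match the detection calls array by array. miR-191 was called on NHR male 2 with 0 of its 20 spots well above background. miR-425* was called on HHR male 3 and NHR females 2 and 4 with 0 such spots, but not on HHR male 4 with 2. Each miRNA had 20 spots per array, hence 160 per strain. For miR-425, 153 spots were well above background in HHR and 138 in NHR. The corresponding counts for miR-191* were 90 in HHR and 96 in NHR. miR-425* reached 3 spots in HHR and 3 in NHR, and miR-191 reached 1 in HHR and 0 in NHR. The 2 probes of miR-425 and the 4 of miR-191* differed in how many of their spots passed. For miR-425 the stronger probe passed on 80 of 80 spots in each strain, and the weaker on 73 of 80 in HHR and 58 of 80 in NHR. For miR-191* the weakest probe passed on 7 of 40 spots in HHR and 10 of 40 in NHR, and the strongest on 39 of 40 in HHR and 40 of 40 in NHR. Each of the 3 miR-425* probes passed on 1 spot in HHR and on at most 3 in NHR. Each of the 4 miR-191 probes passed on at most 1 of its 40 spots in either strain.

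The array carried 205 hairpins with an arm named with an asterisk and an arm named without. The unstarred arm was detected on more arrays in 101 of them, the starred arm in 16, and 88 had equal counts, of which 72 were detected on 0 arrays in either arm. In 6 hairpins the starred arm was detected on all 16 arrays and the unstarred arm on at most 1: miR-191, miR-202, miR-208, miR-296, miR-421 and miR-675. The 5 besides miR-191 were singled out by these counts. miR-425 belonged to the commoner pattern, with 76 hairpins whose unstarred arm was detected on all 16 arrays and whose starred arm was on at most 4.

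**Figure D1:**
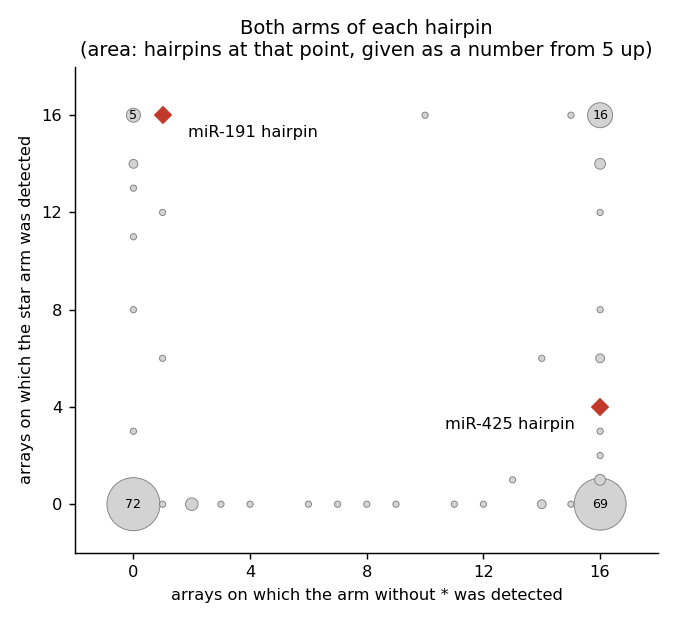
Each circle stands at the number of arrays, of 16, on which the unstarred arm (horizontal axis) and the starred arm (vertical axis) of a hairpin were detected, over 205 hairpins; its area shows how many hairpins share the point. Mir191 stands at 1 and 16, among the few in the upper left, and Mir425 at 16 and 4, in the lower right where most detected hairpins lie.

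miR-425 had a narrow range of levels in both strains. Its lowest, median and highest levels were 35.4, 38.0 and 39.5 in HHR hearts, against 38.4, 41.5 and 43.3 in NHR hearts. On the log2 scale the HHR females measured 5.24, 5.15, 5.25 and 5.31 and the HHR males 5.30, 5.22, 5.25 and 5.26, against 5.38, 5.31, 5.39 and 5.39 in NHR females and 5.44, 5.33, 5.37 and 5.26 in NHR males. HHR hearts tended to be at the low end and the strains overlapped slightly: 6 of the 8 HHR values lay below every NHR value, and 7 of the 8 NHR values lay above every HHR value.

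miR-191* spread more widely. Its lowest, median and highest levels were 12.1, 13.6 and 16.7 in HHR hearts, against 12.8, 18.2 and 20.7 in NHR hearts. On the log2 scale the HHR females measured 3.59, 3.76, 3.76 and 3.76 and the HHR males 3.87, 3.95, 4.06 and 3.59, against 4.31, 4.30, 3.90 and 4.13 in NHR females and 4.37, 3.84, 4.23 and 3.68 in NHR males. The strains overlapped, with 2 of 8 HHR values below every NHR value and 5 of 8 NHR values above every HHR value.

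miR-425* and miR-191 lay at or below the range where a probe could be told from background. The lowest level of any miRNA probe well above background was between 3.37 and 4.25 on the log2 scale, depending on the array, and miR-425* was below it on all 16. miR-425* measured 2.72, 2.56, 2.78 and 2.59 in HHR females and 2.68, 2.97, 2.88 and 2.61 in HHR males, against 3.24, 3.35, 2.88 and 3.25 in NHR females and 3.40, 2.82, 3.22 and 2.55 in NHR males. miR-191 ranged from the floor of 0.94 to 2.29 in HHR and from the floor to 2.24 in NHR, and it was not tested, since a test required detection on at least 4 arrays.

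**Figure D2:**
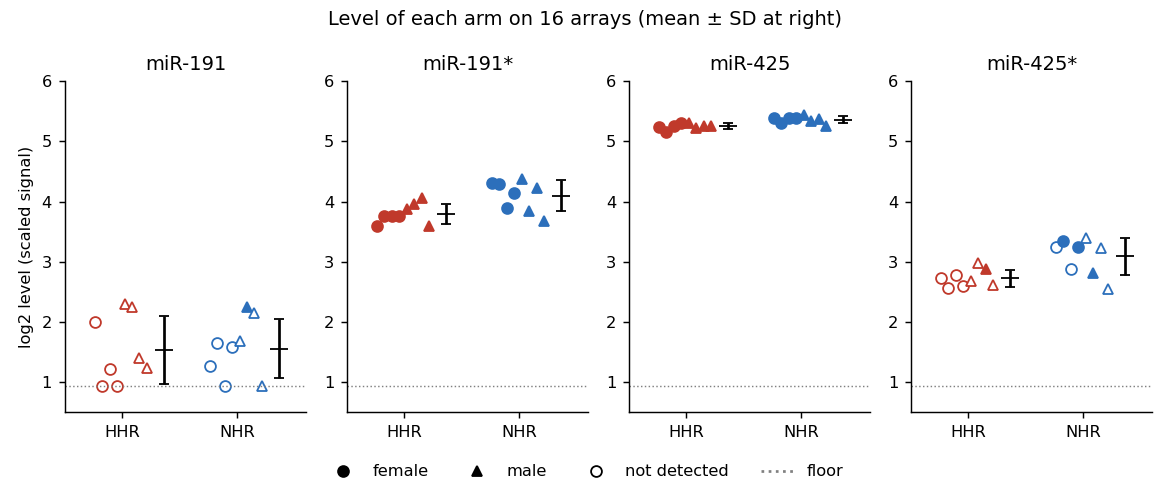
Log2 levels of the 4 miRNAs on each of the 16 arrays, HHR to the left of NHR, with circles for females, triangles for males, open symbols where the miRNA was not detected, and the mean ± SD of each strain at its right; the dotted line is the floor. The strains overlap in each panel, miR-425 keeps within 5.15 to 5.44 and miR-191* spreads from 3.59 to 4.37.

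The strain comparison asked which miRNAs differed between hearts of HHR, labelled hypertrophic, and hearts of NHR at this age; heart size was not measured in these files. Both arms detected on every array, miR-425 and miR-191*, were lower in HHR with this scaling, but a large share of all miRNAs was as well: 54.5% of the 233 tested miRNAs passed the threshold of 0.05, 45.5% lower in HHR. miR-425 averaged 5.25 ± 0.0496 in HHR and 5.36 ± 0.0553 in NHR (log2 level, SD over 8 arrays), a difference of -0.11 ± 0.030 (SE; limma, Benjamini-Hochberg adjusted p = 0.00715), or 1.08-fold lower. This direction turned under 7 other settings, among them no scaling (0.23) and a percentile taken over all probes (0.17, adjusted p = 0.00979 by limma), and the call was lost after quantile normalization (-0.0085) and from the total gene signal (-0.051). miR-191* averaged 3.79 ± 0.164 in HHR and 4.09 ± 0.256 in NHR, a difference of -0.30 ± 0.10 (adjusted p = 0.0263 by limma), or 1.23-fold lower, and its direction turned without scaling (0.039) and in the authors' deposited table (0.016). Its call was also lost, at a smaller size, with median centring (-0.13), quantile normalization (-0.061), spike-in scaling (-0.055) or a percentile over all probes (-0.020). The authors' table compresses the levels of dim miRNAs. Sizes of differences and ratios taken from it, here and below, are therefore not on the scale of the others. miR-191* itself was close to the limit of measurement: its level was below that of the dimmest probe well above background on HHR female 1 and HHR male 2, and above it by at most 0.47 on the log2 scale on the others. That level is a mean over 4 probes, set here against a single probe. The strongest miR-191* probe had most of its spots well above background on 8 of 8 arrays of each strain.

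The call for miR-191* was lost on leaving out HHR male 4 (adjusted p = 0.0551), NHR female 1 (0.0520), NHR male 1 (0.0524) or NHR male 3 (0.0527), by limma in each case. miR-425* averaged 2.73 ± 0.146 in HHR and 3.09 ± 0.300 in NHR. It entered the fit through 3 NHR arrays and 1 HHR array, the fewest that the filter allows, and lay below the well-measured range on all 16. Its fitted difference of -0.36 ± 0.11 (limma, adjusted p = 0.0169) is therefore one between values at background, and neither a fold nor a call is drawn from it. That value was -0.12 after quantile normalization, -0.023 without scaling and 0.0030 in the authors' deposited table. Each of the 2 slides held 2 arrays of every group; on slide 1 and slide 2 alone the differences were -0.14 and -0.088 for miR-425, -0.41 and -0.19 for miR-191* and -0.47 and -0.26 for miR-425*, none passing by limma with 4 arrays per strain, and those of miR-425 and miR-191* passed with slide as a block. The values of the strains overlapped for each of the 3, whereas 14.2% of all tested miRNAs had values that did not overlap.

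The median difference over all 233 tested miRNAs was -0.11. Relative to it, miR-425 differed by -0.0066 and miR-191* by -0.19. Thus 112 tested miRNAs had a more negative difference than miR-425 and 51 had one more negative than miR-191*.

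The probes of each miRNA pointed the same way with the reported scaling. They were read on the same arrays and shared the scaling factor of each array, so they are no independent support. Both miR-425 probes were lower in HHR, with differences of -0.11 (adjusted p = 0.0165) and -0.13 (0.0400, limma). The 4 probes of miR-191* gave differences of -0.34, -0.31, -0.28 and -0.28, with adjusted p between 0.0296 and 0.0429 by limma. The 3 miR-425* probes, all at background, gave -0.31, -0.37 and -0.42.

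Array brightness differed by strain, and the scaled values of miR-191* and miR-425* were higher on the dimmer arrays. The NHR arrays fell into 5 with a 75th percentile of 294.7 to 326.8 and 3 (female 3, male 2 and male 4) with 442.7 to 502.9, while the HHR arrays ran from 417.7 to 525.2. miR-191* measured 3.59 to 4.06 on the HHR arrays, 4.13 to 4.37 on the 5 dim NHR arrays and 3.68 to 3.90 on the 3 bright NHR arrays. The bright NHR arrays thus lay inside the HHR range and the dim ones above it. miR-425* followed the same order, at 2.56 to 2.97 on HHR arrays, 3.22 to 3.40 on dim NHR arrays and 2.55 to 2.88 on bright NHR arrays. For miR-425 the separation by brightness was smaller, at 5.15 to 5.31 in HHR, 5.31 to 5.44 on dim NHR arrays and 5.26 to 5.39 on bright NHR arrays. Whether brightness accounts for the strain differences was not tested.

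Before scaling, the signal of miR-191* was nearly flat across arrays. It averaged 15.3 ± 0.687 in HHR and 15.0 ± 1.66 in NHR (signal units, SD over 8 arrays), and its highest array exceeded its lowest by 1.35-fold, against 1.78-fold for the 75th percentile. The unscaled signal of miR-425* averaged 7.32 ± 0.501 in HHR and 7.47 ± 0.882 in NHR. That of miR-425 averaged 42.1 ± 3.72 in HHR and 36.6 ± 8.09 in NHR, with a 1.73-fold range.

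As a description over the 16 arrays, which share these libraries, the log2 unscaled signal changed by 0.845 for each unit of log2 brightness for miR-425, close to the median of 0.848 over all 233 tested miRNAs. The same slope was 0.185 for miR-191* and 0.0967 for miR-425*, places 32 and 29 from the lowest of 233. Within the HHR arrays the slopes were 1.03 for miR-425, -0.346 for miR-191* and 0.0672 for miR-425*, over a narrower range of brightness. Within the NHR arrays they were 0.935, 0.300 and 0.206 in the same order. With brightness as a covariate, chosen after seeing the data, the strain difference was -0.097 for miR-425 (limma, adjusted p = 0.0662), -0.048 for miR-191* (0.645) and -0.098 for miR-425* (0.435). None of the 3 passed in that fit, in which 74 of the 233 miRNAs did. Brightness differed by strain and also set the scaling, so this fit cannot tell brightness from strain.

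**Figure D3:**
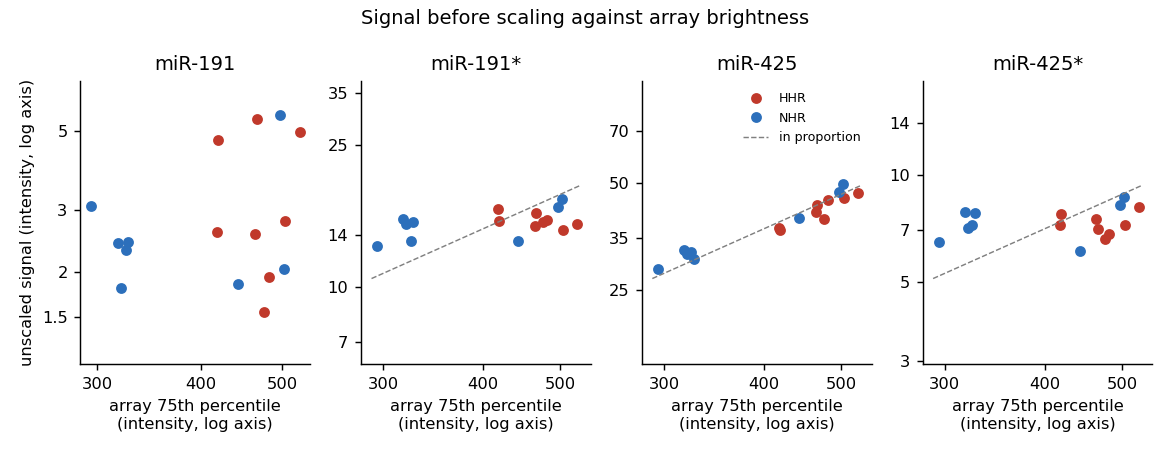
Unscaled signal of the 4 miRNAs on each array against the array's 75th percentile, both on log axes, with HHR arrays in red and NHR arrays in blue; the dashed line marks signal in proportion to brightness. miR-425 climbs with array brightness (slope 0.845) while miR-191* (0.185) and miR-425* (0.0967) stay nearly level.

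**Figure D4:**
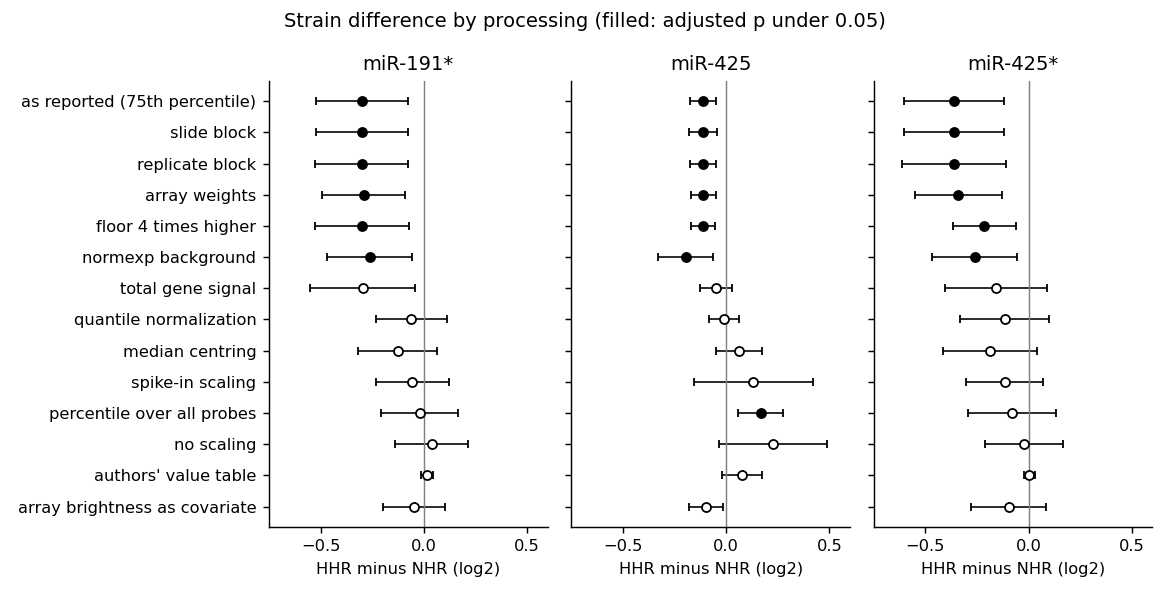
Strain difference (log2, HHR minus NHR) of each tested member under each scaling and model, with 95% intervals and filled symbols for calls at an adjusted p under 0.05 by limma. miR-425 lies below zero with the reported scaling (-0.11) and above it in 5 of the settings drawn, up to 0.23 without scaling; miR-191* and miR-425* stay below zero apart from 0.039 (no scaling) and 0.016 (the authors' table) for miR-191* and 0.0030 (the authors' table) for miR-425*.

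Within females miR-425 and miR-191* were lower in HHR, and in males the same test did not pass for either. miR-425* is given beside them as a value at background. The female differences were -0.13 for miR-425 (limma, adjusted p = 0.0227), -0.44 for miR-191* (0.0277) and -0.51 for miR-425* (0.0210), beside 45.1% of all miRNAs called in females, of which most were lower in HHR (38.6% of all). miR-425* was detected on 0 of 4 HHR female arrays, and no call is drawn from its value. Each of the 3 female differences lost its pass without NHR female 1 (adjusted p = 0.0557, 0.0782 and 0.0526 in the same order, limma) or NHR female 4 (0.0563, 0.0536 and 0.0546). Those of miR-191* and miR-425* also ended without NHR female 2 (0.0635 and 0.0522), those of miR-425 and miR-425* without HHR female 2 (0.0690 and 0.0535), and that of miR-191* without HHR female 1 (0.0697). In males the differences were -0.092 for miR-425 (limma, adjusted p = 0.136), -0.16 for miR-191* (0.442) and -0.21 for miR-425* (0.358), beside 20.6% of all miRNAs called (16.7% lower in HHR).

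The sexes were not shown to differ in this. The interaction (male minus female strain difference) was 0.042 for miR-425, with a 95% interval of -0.087 to 0.17, and 0.28 for miR-191* (-0.16 to 0.73), with adjusted p of 0.943 and 0.929 by limma. For miR-425* it was 0.30 (-0.19 to 0.79; limma, adjusted p = 0.929). By limma 0 of 233 miRNAs passed for the interaction, and 9 had an unadjusted p under 0.05.

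No member passed the test between the sexes. The male minus female difference was 0.0017 for miR-425 (95% interval -0.063 to 0.066), 0.010 for miR-191* (-0.21 to 0.23) and -0.029 for miR-425* (-0.27 to 0.21), each with an adjusted p of 0.983 by limma. Over all 233 miRNAs, 0 passed for sex by limma and 23 had an unadjusted p under 0.05.

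The arm ratio within an array does not depend on a common scaling factor, but for Mir425 its denominator lay at background on all 16 arrays. For this hairpin the log2 ratio of miR-425 over miR-425* averaged 2.52 in HHR and 2.27 in NHR, a difference of 0.25 ± 0.11 (SE) that did not pass after adjustment over the 36 hairpins with both arms tested (limma, Benjamini-Hochberg adjusted p = 0.118). In that family 4 of 36 hairpins passed, or 11.1%. Without NHR male 4 it was 0.31 and passed (limma, adjusted p = 0.0464), while it was 0.066 with normexp, 0.074 in the authors' deposited table, 0.10 with a floor 4 times higher, 0.11 from the total gene signal and 0.00026 with brightness as a covariate. A shift in the use of the arms cannot be read from these values. The ratio of the arms of Mir191 was not tested, since miR-191 was detected on 1 array.

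Across the hairpins, the log2 ratio of miR-191* to miR-425 averaged -1.45 ± 0.169 in HHR and -1.26 ± 0.226 in NHR (SD over the 8 arrays of a strain), ranging from -1.66 to -1.19 in HHR and from -1.58 to -1.01 in NHR. The difference of -0.19 did not pass a two-sided exact permutation test over all 12870 splits (p = 0.0828). It passed without HHR male 3 (-0.23, exact permutation p = 0.0446) or without NHR male 4 (-0.23, p = 0.0343), and it was -0.066 with normexp and -0.061 in the authors' deposited table. This ratio replaced that of miR-191 to miR-425 once miR-191 had been found undetected. Its size depends on the probes and is no ratio of molecules.

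A reference miRNA should keep a constant ratio to other miRNAs, and the detected arms of the cluster stood far apart by this measure. For each of the 186 miRNAs detected on every array, the SD over 16 arrays of the log2 ratio to each other such miRNA was averaged, so that a smaller value is steadier. miR-425 had 0.155, place 22 of 186 from the steadiest, and miR-191* had 0.253, place 133; the median was 0.190 and the range 0.150 to 0.582. From the total gene signal their places were 21 and 137 (0.171 and 0.305), and by the values the authors deposited they were 2 and 97, with miR-191* at 0.129. Within HHR arrays miR-425 stood at place 71 and miR-191* at 146, and within NHR arrays at 2 and 152. These places are descriptions over libraries that share the strain and brightness differences above. miR-191* also lay close to the limit of measurement, and how far this sets its place was not tested.

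The miRNAs whose ratio to miR-425 varied least were miR-16 (SD of the log2 ratio 0.0355), miR-103 (0.0397) and let-7d (0.0412), over 16 arrays. Those whose ratio to miR-191* varied least were miR-298 (0.0849), miR-664 (0.0849) and let-7b* (0.0998). miR-191* stood at place 134 of 185 in the order around miR-425, and miR-425 at place 60 of 185 in the order around miR-191*. Their hairpins are neighbours, but miR-191* lay close to the limit of measurement. Separate expression of the hairpins cannot be read from these places.

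Among 18 miRNAs often used for normalisation, 17 were detected on all arrays and miR-423 on 0. The steadiest were miR-103 (place 2 of 186), miR-16 (3), miR-26a (7) and miR-151 (9), and the least steady were miR-484 (81) and miR-320 (127). miR-425 stood after 9 of these 17 and miR-191* after all of them. By limma 9 of the 17 were lower in HHR and 0 higher, with a median difference of -0.082, beside 45.5% of all miRNAs lower and a median of -0.11; as for miR-425, these directions hold for the reported scaling.

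**Figure D5:**
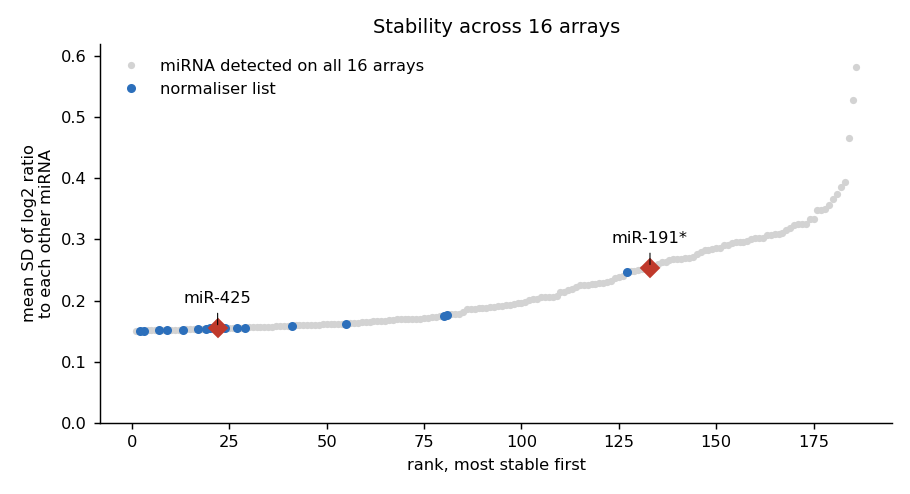
Mean SD of the log2 ratio to all other miRNAs detected on every array (vertical axis, smaller is steadier), for the 186 miRNAs in order of rank (horizontal axis), with miR-425, miR-191* and the normaliser candidates marked. miR-425 (0.155, place 22) lies on the flat part with most candidates, and miR-191* (0.253, place 133) lies on the rise.

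The choice of a member as the reference changed which miRNAs were called between strains. With the reported scaling 127 of 233 miRNAs passed by limma, 21 higher and 106 lower in HHR. Scaled to miR-425, 74 of the other 232 passed (31.9%), 42 higher and 32 lower, and the median difference was 0.0069. Scaled to miR-191*, 61 of 232 passed (26.3%), 49 higher and 12 lower, with a median of 0.19. miR-191* lay close to the limit of measurement, and its unscaled signal was nearly flat across arrays. Without any scaling 48 of 233 passed by limma, 38 higher and 10 lower, with a median of 0.23.

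Of the 74 calls with miR-425 as reference, 53 were also calls with the reported scaling, which is 71.6% of the 74 and 41.7% of the 127. Of the 61 with miR-191*, 33 were, or 54.1% of the 61 and 26.0% of the 127. All shared calls had the same sign. Scaling to the mean of miR-425 and miR-191* gave 80 calls, 55 higher and 25 lower.

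Markers of muscle and of other cell types moved with strain beside the cluster, against 45.5% of all tested miRNAs called lower in HHR and 54.5% called either way. All calls in these lists are those of the reported scaling. With a percentile over all probes, 134 of 155 calls over all miRNAs were higher in HHR. In the cardiac and skeletal muscle list 4 of 6 tested members were lower and 0 higher by limma, with a median difference of -0.14 beside -0.11 over all. In bulk tissue, fewer cells of a type and less RNA per cell cannot be told apart. In the leukocyte list, 3 of 4 tested members were lower in HHR by limma with the reported scaling (log2 differences of -0.53 for miR-150, -0.47 for miR-223 and -0.30 for miR-146a) and 0 higher, with a summed level of 138.5 to 156.5 in HHR and 167.6 to 211.6 in NHR; miR-142-5p was detected on 0 arrays. Both endothelial members, miR-126 and miR-126*, were lower, with summed levels of 982 to 1096 in HHR and 1178 to 1295 in NHR. Both smooth muscle members were lower, miR-143 by -0.12 and miR-145 by -0.13, near the median of -0.11 over all. Of 3 fibroblast members 1 was higher and 0 lower, and of 3 erythroid members 0 passed, at 208.0 to 318.6 in HHR and 218.3 to 345.8 in NHR. Their part in the strain differences of the cluster was not tested.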

How the data were processed

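Total RNA of each heart (100 ng, per the labels' protocols) was labelled with Cy3 and hybridised to 1 array. The authors deposited the scanner output, in which, per the file headers, Agilent Feature Extraction (version 10.7.3.1) gave each spot's intensity after subtracting background; the rn4 build is named there. They also deposited a table of log2 values, for which the submitters' processing notes name limma; how it was background-corrected, scaled or centred is not given in the sources used here. Its columns correlated at 0.999 with the log2 median signal, with medians of 6.13 to 6.15. It compresses dim miRNAs. Its mean values rose by 0.137 per unit of log2 level over the dimmer tested miRNAs and by 0.690 over the brighter. Detection calls were taken from the deposited flags (other values, 0 or 1).

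From the processed signal, control and outlier spots were left out, spots averaged by probe, and arrays scaled to their 75th percentile over 258 probes well above background on all 16 arrays. That status needed the flag on most spots of the probe. Probes were averaged per miRNA, values under 1.92 were raised to it, and log2 was taken. The 233 miRNAs detected on at least 4 arrays were fitted with limma 3.58.1 in R 4.3.3, 1 mean per group, with Benjamini-Hochberg adjustment over all 233 (over 36 hairpins for arm ratios); calls had an adjusted p under 0.05. Replicates are separate animals; litters are not named in the labels. The fit was tested on simulated data.

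The members, the lists and the rules were chosen with earlier results of these data known. Named besides the members are the 3 miRNAs of steadiest ratio to each detected arm, the 4 steadiest and 2 least steady normaliser candidates, and cell type markers; the neighbours of Mir425 in arm ratio, also in the rule, are left out because miR-425* lay at background. Tests planned on miR-191 (its arm ratio, its ratio to miR-425, scaling to it) were not run, because it was detected on 1 array. Normexp used the median signal and an offset of 50. This offset lies above the unscaled signals of miR-425, miR-191* and miR-425* on every array, and it draws low signals together. Same-numbered animals were not treated as pairs. Of 24 such pairs 16 correlated above 0.1, from -0.217 to 0.526, while the 72 other pairs ran from -0.611 to 0.705. Same-numbered animals also shared a slide. Each of the 2 slides held 2 arrays of every group.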

Additional observations from a re-analysis of the deposited data

Results flagged for a closer look

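In each group of 4 animals, the gap between the highest or lowest array and its nearest neighbour was set against the whole range of the group. Of 12 groups tested over the 3 members, 2 had an array apart by more than Dixon's critical value for 4 samples, and chance gives about 1 in 20 such groups. For miR-191*, HHR female 1 was lowest of the HHR females at 3.59 on the log2 scale, with the other 3 at 3.76 (gap over range 0.965). For miR-425, NHR female 2 was lowest of the NHR females at 5.31, with the others at 5.38 to 5.39 (gap over range 0.898). The size of both gaps was small, and leaving out either array kept the strain calls over both sexes. The female call of miR-191* ended without HHR female 1 (limma, adjusted p = 0.0697).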

How the results depend on the processing

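The strain calls depended on the scaling. Strain differences (log2, HHR minus NHR, limma) for miR-191*, miR-425 and miR-425* in that order were -0.020, 0.17 and -0.082 with a percentile over all probes, -0.061, -0.0085 and -0.12 after quantile normalization, 0.039, 0.23 and -0.023 without scaling, -0.13, 0.061 and -0.19 with median centring, -0.055, 0.13 and -0.12 with spike-in scaling, -0.30, -0.051 and -0.16 from the total gene signal, and 0.016, 0.077 and 0.0030 in the authors' deposited table. Only the 0.17 of miR-425 passed, with adjusted p = 0.00979. Scaled to miR-425, miR-191* differed by -0.19 and miR-425* by -0.25; scaled to miR-191*, miR-425 differed by 0.19 and miR-425* by -0.062; scaled to the mean of miR-425 and miR-191*, miR-425 differed by 0.094; none passed. With brightness as a covariate the values were -0.048, -0.097 and -0.098, on slide 1 alone -0.41, -0.14 and -0.47, and on slide 2 alone -0.19, -0.088 and -0.26, none of them passing. The first miR-425* probe gave -0.31. The counts over all miRNAs moved too: 127 calls (21 higher, 106 lower) became 95 (57, 38) after quantile normalization, 155 (134, 21) with the percentile over all probes, 87 (59, 28) with median centring, 48 (38, 10) without scaling, 26 (16, 10) with spike-in scaling, 70 (34, 36) from the total gene signal, 165 (2, 163) with normexp, 15 (13, 2) in the authors' table and 74 (15, 59) with the covariate. Within females, quantile normalization gave -0.13, -0.033 and -0.18, and the total gene signal gave -0.070 for miR-425 and -0.31 for miR-425*, none passing. In males quantile normalization turned miR-191* to 0.0093 and miR-425 to 0.016, and it turned the sex difference of miR-425* to 0.015. The Mir425 arm ratio passed with array weights (0.29, adjusted p = 0.0466) and was 0.00026 to 0.33 over its 12 other alternatives without passing. The miR-191* to miR-425 ratio passed from the total gene signal (-0.25, exact permutation p = 0.0462) and was -0.27 to -0.061 over its 9 others without passing. The cause of these changes was not tested.

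Leaving out each array in turn gave strain differences of -0.36 to -0.24 for miR-191*, -0.13 to -0.098 for miR-425 and -0.44 to -0.30 for miR-425*. Within females the ranges were -0.53 to -0.39, -0.16 to -0.10 and -0.61 to -0.46. The female calls of miR-425 and miR-191* ended without NHR female 1 or NHR female 4. That of miR-191* also ended without HHR female 1 or NHR female 2, and that of miR-425 without HHR female 2. The female value of miR-425*, at background and not counted as a call, fell short without NHR female 1, 2 or 4 or HHR female 2. The sex difference ran from -0.046 to 0.068, -0.013 to 0.016 and -0.095 to 0.045. The Mir425 arm ratio ran from 0.20 to 0.31 and passed without NHR male 4 (0.31, limma, adjusted p = 0.0464). The miR-191* to miR-425 ratio ran from -0.23 to -0.15 and passed without HHR male 3 or NHR male 4. With a replicate block the differences were -0.30, -0.11 and -0.36 and the Mir425 arm ratio 0.25, with 124 calls in place of 127; no call of a member changed under the block. Signal over background limits miR-425* and miR-191 above all.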
